A study of Mus musculus with 8 samples.

Results

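Aminoacyl-tRNA synthetases are the enzymes that attach each amino acid to its transfer RNAs (tRNAs), the step that supplies charged tRNA to the ribosome. The family was taken from the array table by symbol: probe sets that name a single gene ending in ars, with or without a closing 1 or 2, together with Eprs, Farsa and Farsb. This gave 34 genes with 1 probe set each, of 21515 genes measured. Of these, 18 encode cytosolic enzymes and 16, whose symbols end in 2, encode mitochondrial enzymes. Symbols are printed as the platform's annotation gives them, and family members without such a probe set were not analysed here.

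Each enzyme belongs to one of a pair of structural classes and serves 1 amino acid, except Eprs, which joins a glutamyl and a prolyl enzyme in a single protein. Several cytosolic enzymes sit in the multi-synthetase complex together with the scaffold proteins Aimp1, Aimp2 and Eef1e1. Mitochondria use a separate nuclear-encoded set for the tRNAs of their own genome, but Gars and Kars each encode both the cytosolic and the mitochondrial form. Several cytosolic synthetase genes are known targets of ATF4, the transcription factor of the amino acid response, and resting lymphocytes that are stimulated are known to enlarge their translation machinery before they divide.

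The arrays hold RNA of mouse spleen B cells in 4 groups of 2 arrays, enriched from spleen through removal of CD43-bearing cells. The LMP1 group came from female (C57BL6XBALBc) F1 mice of genotype LMP1flSTOP/YFPflSTOP, and the YFP control group from female mice of the same cross that carried YFPflSTOP/+. LMP1 is the latent membrane protein 1 of Epstein-Barr virus, which signals without a ligand through adaptors shared with the receptor CD40, and YFP is a yellow fluorescent reporter. In both groups TAT-Cre, a cell-permeable recombinase, was given to the isolated cells to remove the stop cassettes, and YFP-positive cells were sorted after 2 days. The naive control and CD40-activated groups came from male B6/J mice (breed C57BL6), carried no transgene and saw neither TAT-Cre nor a sort. Naive control cells went straight to RNA extraction, and CD40-activated cells received anti-CD40, an antibody that triggers the receptor, over 2 days. CD40 treatment and the time in culture therefore cannot be told apart, and between the pairs of groups neither can strain, sex, recombinase, sort and the earlier series from which the LMP1 and YFP control arrays were taken. The labels call the replicates biological without naming animals, so p-values measure the spread between these samples.

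The YFP control arrays stood apart from each other more than any other pair. Replicates correlated over all genes with r = 0.975 in YFP control, 0.981 in naive control, 0.993 in CD40-activated and 0.996 in LMP1 cells. Of the 34 synthetases, 13 differed by more than 0.5 log2 between the YFP controls, against 0 in each of the other groups. YFP control 2 was the lower array at 16 of 18 cytosolic genes, with a median difference of -0.44 log2, while the median of all genes was 0.06 higher there. The largest gap was 1.25 log2, at Hars. The synthetase counts and list counts that rest on the YFP controls were also computed with each of them left out; the pairs of enzymes and the motif medians were not.

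The promoters of the synthetases were searched for short motifs. RefSeq windows (build GRCm38.p6) running from 250 bases before to 50 bases after an annotated transcription start matched 25 of the 34 genes, 11 cytosolic and 14 mitochondrial. The letters TGATGNAA, the core of the composite element bound by ATF4 with C/EBP proteins, occurred on either strand in 4 of 11 cytosolic windows (36.4%) and 0 of 14 mitochondrial windows, beside 4.51% of 27025 windows of all genes. The 4 windows belong to Gars, Iars, Tars and Yars. These 4 genes were higher in both kinds of activated cell, as were Eprs, Farsb, Kars, Mars1 and Qars, whose windows held no match. Farsa and Sars, also without a match, passed as higher in LMP1 cells only. All 4 stretches with a match are shown. Each is written 5′ to 3′ along the strand of the gene, with the matched bases in capitals.
Gars, glycyl enzyme, chr6:55037901-55038000, plus strand, directly before the start: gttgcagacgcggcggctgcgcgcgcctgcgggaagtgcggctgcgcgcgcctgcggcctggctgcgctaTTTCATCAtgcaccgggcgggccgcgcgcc
Tars, threonyl enzyme, chr15:11399659-11399758, minus strand, directly before the start: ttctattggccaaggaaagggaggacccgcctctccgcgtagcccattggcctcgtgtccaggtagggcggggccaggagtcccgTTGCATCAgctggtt
Iars, isoleucyl enzyme, chr13:49682126-49682155, plus strand, across the start: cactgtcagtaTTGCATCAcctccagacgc
Yars, tyrosyl enzyme, chr4:129189895-129189924, plus strand, across the start: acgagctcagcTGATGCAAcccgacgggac

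In Gars, Iars and Tars the match lay on the opposite strand, and in Yars on the strand of the gene. Counted from the start at 1, the matches ran from -30 to -23 in Gars, from -15 to -8 in Tars, from 8 to 15 in Iars and from 4 to 11 in Yars. The E box CACGTG, which Myc and related factors bind and which reads the same on both strands, occurred in 8.09% of all windows and in 3 of 11 cytosolic windows (Farsb, Iars and Tars) and 1 of 14 mitochondrial windows (Ears2). CGCATGCG, the core of the element of the respiratory gene factor NRF1 and also the same on both strands, occurred in 2.07% of all windows. It was found in 0 of 11 cytosolic and 2 of 14 mitochondrial windows, those of Vars2 and Wars2. The 3 motifs share no overlapping match in these windows. A match is a description of letters, and no binding was measured.

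All 18 cytosolic synthetases were higher in LMP1 cells than in YFP control cells. The changes ran from 0.78 to 2.23 log2, with a median of 1.65, while the median over all genes was -0.07. Of the 16 mitochondrial enzymes 8 were higher, 1 was lower and 7 did not pass, with a median of 0.72. The threshold was 0.05 for the adjusted p of limma's test (Benjamini-Hochberg over all 21515 genes), and of these genes 14.9% passed as higher and 8.31% as lower. Log2 changes are given with their standard error from 2 arrays a group.

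Of the cytosolic genes 18 were higher without YFP control 1 (median 1.87) and 17 without YFP control 2 (median 1.44), where Wars no longer passed. The mitochondrial count was 11 without YFP control 1 and 7 without YFP control 2, with medians of 0.8 and 0.46. Quantile normalization within each pair of groups, in place of the joint normalization the authors deposited, gave a cytosolic median of 1.37 and a mitochondrial median of 0.45. That scaling moved the calls over all genes to 11.8% higher and 10.3% lower, and Wars, Iars2 and Nars2 no longer passed. Over the 15 alternatives run, 13 of the 18 cytosolic calls held throughout and Qars, Rars, Sars, Vars and Wars lost theirs in 1 or more.

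**Figure D1:**
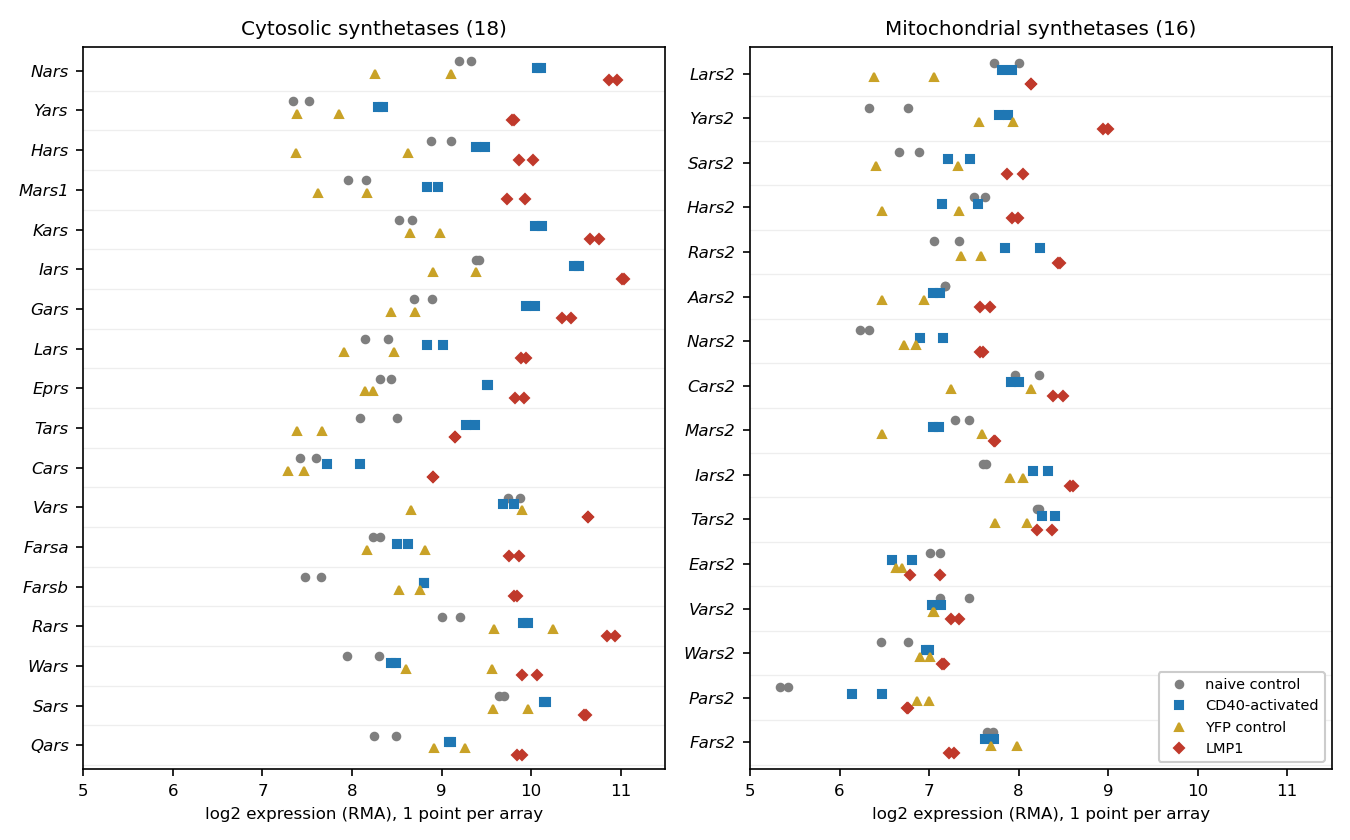
Log2 expression of the 34 synthetases, 1 point per array, for naive control (grey circles), CD40-activated (blue squares), YFP control (yellow triangles) and LMP1 cells (red diamonds), with cytosolic genes on the left and mitochondrial genes on the right. Both LMP1 arrays lie above the other 6 arrays at 17 of 18 cytosolic genes, and the YFP control triangles are the most widely spaced pair.

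The plot of levels by array shows where LMP1 cells stood against all other cells. Both LMP1 arrays lay above the remaining 6 arrays at 17 of 18 cytosolic and 11 of 16 mitochondrial genes. Over all genes this held for 17.3%. The exceptions were Tars, whose highest arrays were the CD40-activated ones, Pars2, whose highest arrays were the YFP controls, and Ears2, Fars2, Tars2 and Vars2, where no group lay above all others.

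Nars, the asparaginyl enzyme, changed most. Its level was 9.11 and 8.26 in YFP control 1 and 2 and 10.96 and 10.87 in LMP1 cells, against 9.19 and 9.33 in naive control and 10.07 and 10.11 in CD40-activated cells. The LMP1 arrays were the highest and YFP control 2 the lowest, and the LMP1 and YFP control arrays did not overlap. The change was 2.23 ± 0.25 (n = 2 arrays per group, adjusted p = 0.000185).

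Yars, the tyrosyl enzyme, whose protein can also be secreted and cut into signalling fragments, was close behind. It stood at 7.86 and 7.38 in YFP control, 9.81 and 9.79 in LMP1, 7.52 and 7.34 in naive control and 8.29 and 8.35 in CD40-activated cells. The control groups overlapped each other, the CD40-activated arrays lay above both and the LMP1 arrays lay above those. Yars rose by 2.18 ± 0.19 from YFP control to LMP1 (adjusted p = 5.27e-05).

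Hars, the histidyl enzyme, was measured at 8.62 and 7.37 in YFP control, 10.02 and 9.87 in LMP1, 8.88 and 9.1 in naive control and 9.38 and 9.49 in CD40-activated cells. The low value was again YFP control 2, and the change of 1.95 ± 0.33 carries the widest error of the leading genes (adjusted p = 0.00191). Without YFP control 2 the Hars change was 1.32, and it still passed. Its mitochondrial counterpart Hars2, which lies next to it in the genome in the opposite direction, shared the low value, with 7.34 and 6.48 in YFP control and 7.93 and 7.99 in LMP1. Hars2 rose by 1.05 ± 0.27 (adjusted p = 0.0168) and did not pass without YFP control 2.

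The 7 measured enzymes of the multi-synthetase complex, Eprs, Iars, Kars, Lars, Mars1, Qars and Rars, were all among the higher genes. Their median change was 1.73, beside 1.53 for the 11 cytosolic enzymes outside the complex. Mars1, the methionyl enzyme that serves initiation as well as elongation, rose by 1.94 ± 0.21, from 8.17 and 7.62 in YFP control to 9.73 and 9.93 in LMP1. Kars, the lysyl enzyme, rose by 1.89 ± 0.17, from 8.98 and 8.65 to 10.66 and 10.76. In neither gene did the arrays of the groups overlap.

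Within the complex the changes were uneven. Iars rose by 1.88 ± 0.19, Lars, the leucyl enzyme that also reports leucine to the growth kinase mTORC1, by 1.73 ± 0.21, and Eprs by 1.68 ± 0.16. Rars, the arginyl enzyme, rose by 0.99 ± 0.22 and Qars, the glutaminyl enzyme, by 0.78 ± 0.18. Qars had the smallest change of all cytosolic genes, from 9.26 and 8.92 in YFP control to 9.9 and 9.84 in LMP1. Qars and Rars did not pass without either LMP1 array.

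Outside the complex the glycyl enzyme Gars rose by 1.83 ± 0.17, the threonyl enzyme Tars by 1.63 ± 0.19, the cysteinyl enzyme Cars by 1.53 ± 0.18 and the valyl enzyme Vars by 1.36 ± 0.32. Farsa and Farsb encode the subunits of the cytosolic phenylalanyl enzyme, which works only as an assembly of both. They rose by 1.32 ± 0.22 and 1.19 ± 0.17. Wars, the tryptophanyl enzyme and a known interferon target, rose by 0.91 ± 0.28, and the seryl enzyme Sars by 0.84 ± 0.18. By structural class the median change was 1.53 for 9 class I genes and 1.73 for 8 class II genes.

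Among mitochondrial enzymes Lars2, Yars2, Sars2 and Hars2 had the largest changes. Lars2, the leucyl enzyme, stood at 7.06 and 6.39 in YFP control and 8.14 and 8.14 in LMP1, and rose by 1.42 ± 0.23 (adjusted p = 0.00142). Its naive control arrays, at 7.72 and 8.01, were near the LMP1 level and well above YFP control. Yars2, by contrast, was lowest in naive control (6.77 and 6.33), higher in YFP control (7.56 and 7.94) and CD40-activated cells (7.78 and 7.88), and highest in LMP1 (9 and 8.94). It rose by 1.22 ± 0.2 from YFP control to LMP1.

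Fars2, the mitochondrial phenylalanyl enzyme, was the single member that fell. Its arrays read 7.69 and 7.98 in YFP control and 7.28 and 7.22 in LMP1, without overlap, a change of -0.58 ± 0.17 (adjusted p = 0.0302). Naive control (7.65 and 7.71) and CD40-activated cells (7.73 and 7.63) lay with YFP control 1. The count of lower mitochondrial genes became 0 without YFP control 2, without either LMP1 array and without either CD40-activated array, the last because all arrays share 1 estimate of the spread.

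The other mitochondrial genes at the lower end did not pass. Pars2, the prolyl enzyme, was at 6.87 and 7 in YFP control and 6.77 and 6.75 in LMP1, a difference of -0.17 ± 0.17. Wars2 differed by 0.2 ± 0.17, from 7.01 and 6.9 to 7.17 and 7.14. Vars2, at 7.06 and 7.04 against 7.34 and 7.24, differed by 0.24 ± 0.17. Ears2, which charges glutamate both onto its own tRNA and onto the mitochondrial glutamine tRNA, was at 6.7 and 6.63 against 7.12 and 6.79, a difference of 0.29 ± 0.18. The LMP1 and YFP control arrays did not overlap at any synthetase, so the lack of overlap does not set these 4 apart. The share of all genes without overlap was not counted, so the lack of overlap is not read as a trait of the family. With LMP1 1 or LMP1 2 left out, fewer genes passed as higher both among the mitochondrial genes and over all genes. The mitochondrial median was then 0.76 or 0.69.

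B cell markers were present in every group and differed in level. The mean over 7 B cell genes was 11.37 and 11.69 in the YFP controls and 10.5 to 10.54 in LMP1 cells, and 5 of the 7 fell, Cd22 the most (-2.43 ± 0.18). Of 8 T cell genes 2 fell, Cd3g (-1.13 ± 0.29) and Lat (-0.73 ± 0.2), and the mean of the list was 5.7 to 6.18 in YFP control and 5.49 to 5.65 in LMP1 cells. Of 10 monocyte and macrophage genes 2 fell, Adgre1 (-2.02 ± 0.2) and Lyz2 (-1.9 ± 0.38), with means of 5.56 to 5.9 and 5.15 to 5.25. Of 7 plasma cell genes Jchain (-3.47 ± 0.17) and Sdc1 (-0.9 ± 0.25) fell and Irf4 (0.78 ± 0.2), which activated B cells also express, rose, with means of 7.26 to 7.36 and 6.71 to 6.74. Of 7 dendritic cell genes 2 rose, Flt3 (2.99 ± 0.22) and Zbtb46 (1.79 ± 0.18), the median of the list was 0.2, and Itgax (-0.08 ± 0.19), Xcr1 (0.2 ± 0.23), Siglech (-0.41 ± 0.17), Clec10a (0.09 ± 0.2) and Batf3 (1.14 ± 0.37) did not pass. In the NK cell, neutrophil and erythroid lists 0 genes passed in either direction in limma, and at an unadjusted p under 0.05 there were 0 higher in each and 2, 1 and 0 lower. In bulk RNA, fewer cells of a type and less RNA per cell cannot be told apart, and the part of these markers in the synthetase result was not tested.

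**Figure D2:**
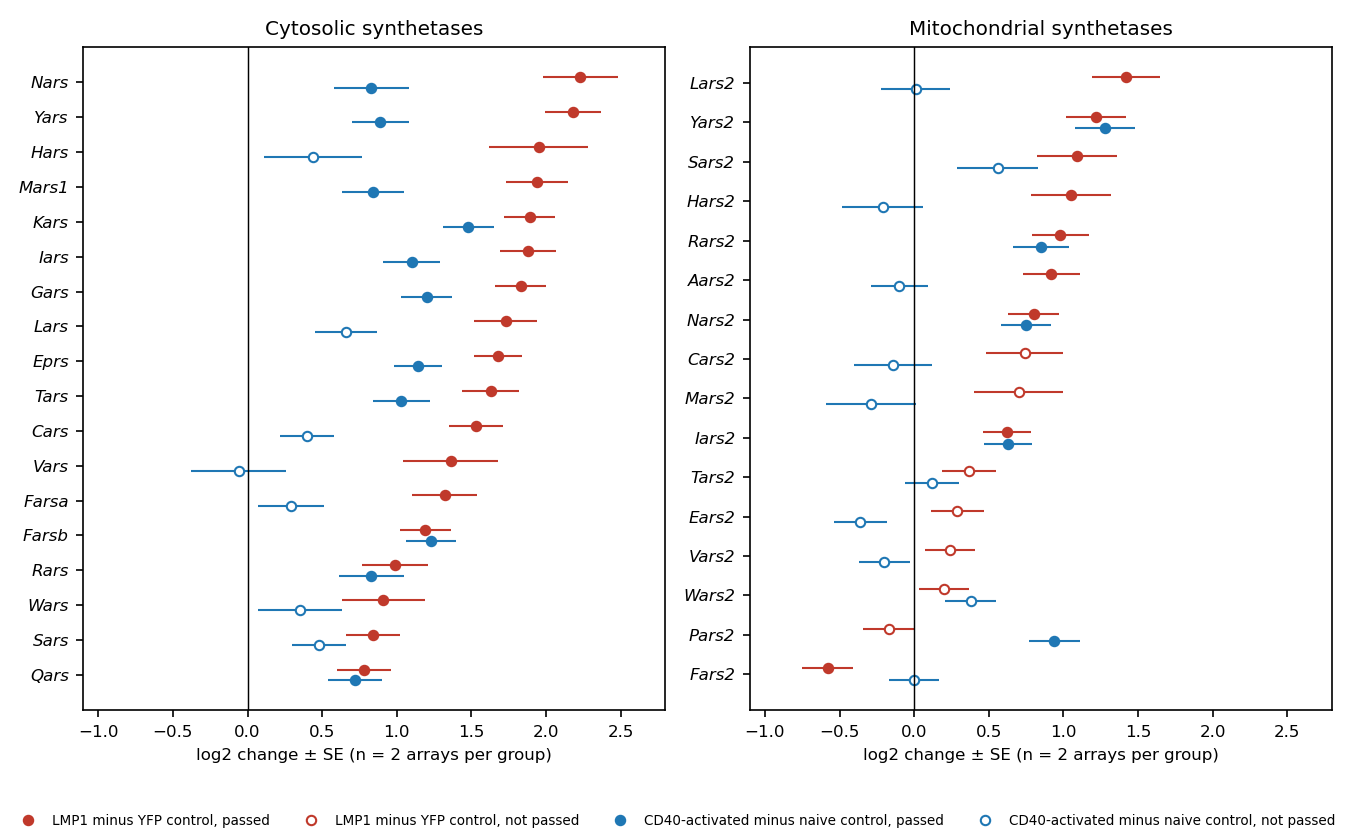
Log2 change with its standard error (n = 2 arrays per group) of each synthetase from YFP control to LMP1 (red) and from naive control to CD40-activated cells (blue). Filled points passed at an adjusted p under 0.05 and open points did not; all 18 cytosolic red points are filled and 11 of the 18 blue ones.

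CD40-activated cells were set against naive control, their own reference. Of 18 cytosolic synthetases 11 were higher than in naive control and 0 lower, with a median change of 0.83, beside -0.05 over all genes. Of 16 mitochondrial enzymes 5 were higher and 0 lower, with a median of 0.06. No member reached even an unadjusted p under 0.05 as lower in limma, beside 2985 of all 21515 genes. Over all genes 11% passed as higher and 6.65% as lower. With each array's median subtracted, all genes moved up by 0.11 (from -0.05 to 0.06), the calls over all genes became 13.1% higher and 4.52% lower, and the cytosolic median became 0.93.

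Kars, the lysyl enzyme, had the largest change. It stood at 8.52 and 8.67 in naive control and 10.04 and 10.12 in CD40-activated cells, and rose by 1.48 ± 0.17 (adjusted p = 0.000466). Farsb went from 7.65 and 7.48 to 8.8 and 8.8 (1.23 ± 0.17), while its partner subunit Farsa went from 8.31 and 8.23 to 8.5 and 8.62 and did not pass (0.29 ± 0.22). One subunit gene passed and the other did not, and the difference between them was not tested.

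Gars rose from 8.89 and 8.69 to 9.94 and 10.04 (1.2 ± 0.17). Eprs rose from 8.44 and 8.31 to 9.51 and 9.52 (1.14 ± 0.16). In both genes the CD40-activated arrays lay close together and above both naive arrays. Iars (1.1 ± 0.19), Tars (1.03 ± 0.19), Yars (0.89 ± 0.19), Mars1 (0.84 ± 0.21), Nars (0.83 ± 0.25), Rars (0.83 ± 0.22) and Qars (0.72 ± 0.18) made up the rest of the 11. Of the complex 6 of 7 passed, and outside it 5 of 11.

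The 7 cytosolic genes that did not pass were Cars, Farsa, Hars, Lars, Sars, Vars and Wars. Vars read 9.88 and 9.74 in naive control and 9.81 and 9.69 in CD40-activated cells, overlapping arrays with a difference of -0.06 ± 0.32. The other 6 had differences from 0.29 (Farsa) to 0.66 (Lars).

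Yars2 was the leading mitochondrial gene, from 6.77 and 6.33 in naive control to 7.78 and 7.88 in CD40-activated cells (1.28 ± 0.2, adjusted p = 0.00221). Pars2 rose by 0.94 ± 0.17, Rars2, the arginyl enzyme, by 0.85 ± 0.19, Nars2 by 0.75 ± 0.17 and Iars2 by 0.63 ± 0.16. The lowest differences belonged to genes that did not pass. Ears2, from 7.12 and 7.01 to 6.59 and 6.81, differed by -0.36 ± 0.18 with no overlap. Mars2, from 7.45 and 7.29 to 7.11 and 7.04, differed by -0.29 ± 0.3. Hars2 differed by -0.21 ± 0.27, from 7.62 and 7.5 to 7.14 and 7.55, with overlapping arrays. Vars2, from 7.45 and 7.12 to 7.03 and 7.13, and Cars2, from 8.23 and 7.96 to 7.91 and 8, also overlapped, with -0.2 ± 0.17 and -0.14 ± 0.26.

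The CD40 counts moved with single arrays, and calls over all genes also became fewer when a naive control or CD40-activated array was left out. The cytosolic median then lay between 0.77 and 0.82. Cytosolic genes higher numbered 6 without naive control 2, 5 without CD40-activated 1 and 6 without CD40-activated 2, and mitochondrial genes 2, 3 and 2. Eprs, Farsb, Gars, Iars, Kars and Yars2 passed in all 15 alternatives. With quantile normalization within each pair of groups the mitochondrial median turned to -0.17 and 3 mitochondrial genes passed.

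Markers of some other cells moved strongly in this comparison. All 8 T cell genes fell from naive control to CD40-activated cells (median -2.5), with a mean level of 8.49 and 8.71 in the naive arrays and 5.88 to 6.22 in the activated ones. Of 8 NK cell genes 6 fell (median -2.74), from a mean of 6.53 to 6.98 down to 4.54 to 4.64. Of 6 erythroid and platelet genes 4 fell (median -2.28), while the mean over B cell genes was 11.21 in naive control and 11.2 to 11.25 in CD40-activated cells. Other lists were mixed or moved little. Of 10 monocyte and macrophage genes 3 fell and 1 rose, and of 9 neutrophil genes 1 fell. Of 7 dendritic cell genes 1 fell and 1 rose, and of 7 plasma cell genes 3 rose and 1 fell. The part of these other cells in the synthetase changes was not tested.

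The 2 responses were compared gene by gene. LMP1 against YFP control and CD40-activated against naive control share no arrays. Of the 34 genes 15 were higher in both, 11 cytosolic and 4 mitochondrial. A further 11 passed as higher in LMP1 but not in CD40-activated cells, and Pars2 passed as higher in CD40-activated but not in LMP1 cells. Over all 21515 genes these counts were 1442 in both, 1690 in LMP1 only and 778 in CD40-activated cells only. Passing in one and not the other does not show a difference, which was tested separately. Across genes, which are not independent replicates, the changes correlated with r = 0.5 over the 34 members, 0.36 over the cytosolic and 0.15 over the mitochondrial genes, beside 0.44 over all genes. The LMP1 change was the larger one at 17 of 18 cytosolic genes, all but Farsb, and at 11 of 16 mitochondrial genes. Over all 21515 genes it was the larger one at 11210.

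The difference of responses, the LMP1 change minus the CD40 change, was tested within the same model. It passed at 6 members, 5 with the larger change in LMP1 cells and 1 with the larger change in CD40-activated cells. Among cytosolic genes 3 of 18 passed and 0 were lower, with a median difference of 0.71, and 11 reached an unadjusted p under 0.05 as higher and 0 as lower. Among mitochondrial genes 2 passed as higher and 1 as lower, with a median of 0.35. Over all genes 4.2% passed as higher and 4.12% as lower, with a median of 0.02. At an unadjusted p under 0.05 in limma, 2539 of the 21515 genes were higher and 2264 lower.

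The cytosolic genes were Nars, Yars and Cars. Their LMP1 changes exceeded their CD40 changes by 1.4 ± 0.35 (adjusted p = 0.0381), 1.29 ± 0.27 (adjusted p = 0.018) and 1.14 ± 0.26 (adjusted p = 0.0256). For Cars the levels were 7.46 and 7.28 in YFP control, 8.9 and 8.9 in LMP1, 7.42 and 7.6 in naive control and 7.72 and 8.09 in CD40-activated cells. The controls of Cars overlapped, the CD40-activated arrays were just above them and the LMP1 arrays stood clear.

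Lars2 and Aars2 were the mitochondrial genes with the larger LMP1 change. Lars2 read 7.82 and 7.93 in CD40-activated cells, within the span of its naive arrays, and its lowest group was YFP control. Its difference was 1.41 ± 0.32 (adjusted p = 0.0255). Aars2, the alanyl enzyme, read 6.94 and 6.47 in YFP control, 7.68 and 7.57 in LMP1, 7.18 and 7.18 in naive control and 7.04 and 7.12 in CD40-activated cells. The Aars2 difference was 1.02 ± 0.27 (adjusted p = 0.044).

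Pars2 went the other way, at -1.11 ± 0.25 (adjusted p = 0.023). It was at 5.33 and 5.42 in naive control and 6.48 and 6.14 in CD40-activated cells, while YFP control was already at 6.87 and 7. Pars2 is the one member at which both YFP control arrays lay above the other 6 arrays.

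The calls on these 6 differences were the least stable of the results. Calls over all genes likewise became fewer without each LMP1, naive control or CD40-activated array, and more numerous without YFP control 1. The cytosolic median was 0.74, 0.71 and 0.73 without LMP1 1, LMP1 2 and CD40-activated 1. It moved to 1.03 without YFP control 1 and 0.52 without YFP control 2, where the mitochondrial median was 0.44 and 0.18. All 6 lost their call without LMP1 1, without LMP1 2 and without CD40-activated 1. Without YFP control 1 the cytosolic count was 11 and the mitochondrial counts 6 higher and 2 lower, and without YFP control 2 they were 4, 2 and 1. Cytosolic genes numbered 0 or 1 without each LMP1, naive control or CD40-activated array. Mitochondrial genes higher numbered 0 or 1 in those settings, and mitochondrial genes lower 0 without LMP1 1, LMP1 2, naive control 1 and CD40-activated 1. Beside this contrast 7 of 8 T cell genes and 6 of 8 NK cell genes also passed as higher. So did 3 of 6 erythroid and platelet genes and 3 of 7 dendritic cell genes. As lower there passed 3 of 7 B cell genes, 3 of 7 plasma cell genes and 2 of 10 monocyte and macrophage genes. The part of these markers was not tested.

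**Figure D3:**
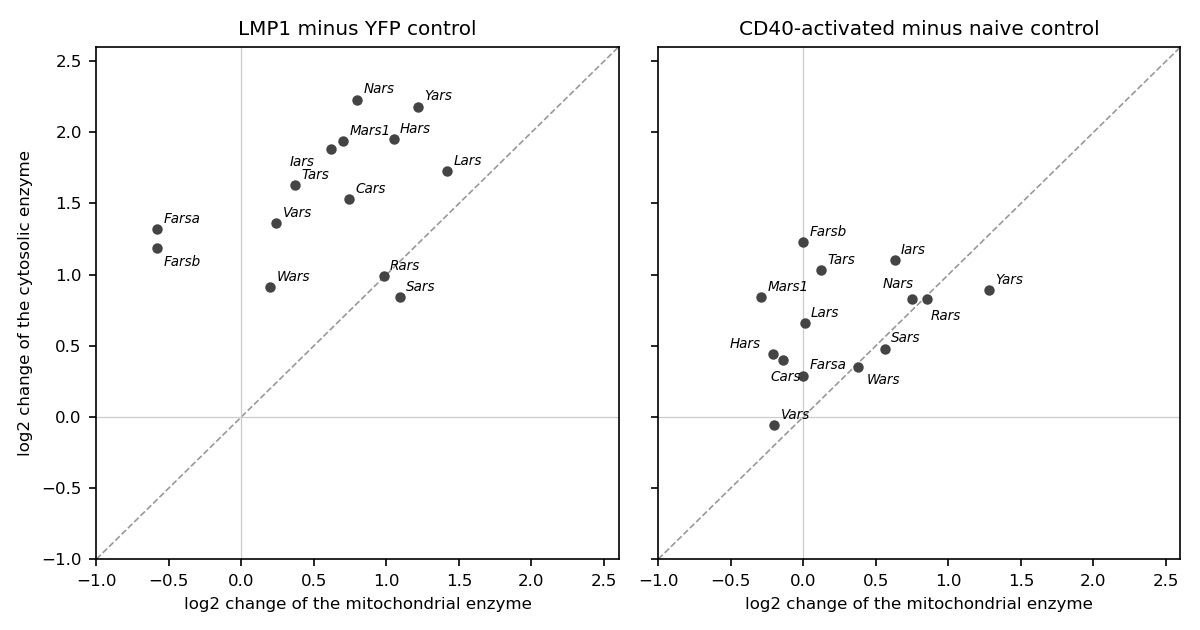
Log2 change of the cytosolic enzyme (vertical) against that of the mitochondrial enzyme for the same amino acid (horizontal), from YFP control to LMP1 on the left and from naive control to CD40-activated cells on the right, with the dashed line marking equal changes. Of 14 points, 13 lie above the line on the left and 10 on the right; Fars2 serves both Farsa and Farsb.

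Cytosolic and mitochondrial enzymes were set side by side for the 14 cases where both were measured for an amino acid, with Fars2 standing against each of Farsa and Farsb. In LMP1 cells the cytosolic gene had the larger change in 13 of 14, by a median of 1.04 log2. Sars was the exception, with 0.84 against 1.09 for Sars2. The widest gap was 1.9, at Farsa, whose mitochondrial counterpart fell, and Nars with 2.23 against 0.8 for Nars2 was among the wider ones.

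In CD40-activated cells the cytosolic gene had the larger change in 10 of 14, by a median of 0.38. The 4 with the larger mitochondrial change were Rars, Sars, Wars and Yars, with Yars2 at 1.28 against Yars at 0.89. These pairs of changes come from the same arrays and are given as a description.

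The controls themselves differed at several synthetases. Except for the cytosolic genes that were higher, the counts were near the shares over all genes. Comparing YFP control with naive control shows what strain, sex, recombinase, sort and culture were associated with together, and these cannot be told apart. Of the cytosolic genes 4 were higher in YFP control (Farsb, Qars, Rars and Wars) and Tars was lower, with a median of -0.11. Of the mitochondrial genes Pars2 and Yars2 were higher and Lars2 was lower, with a median of -0.08. Over all genes 10.9% passed as higher and 7.59% as lower.

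Pars2 had the largest change, 1.56 ± 0.17 (adjusted p = 0.000436), then Yars2 with 1.2 ± 0.2 and Farsb with 1.07 ± 0.17. Lars2 fell by 1.14 log2 and Tars by 0.77. Wars read 8.3 and 7.94 in naive control and 9.56 and 8.6 in YFP control, a change of 0.96 ± 0.28 with a wide gap between the YFP controls. Farsb, Pars2 and Yars2 passed in all 15 alternatives.

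The lower counts turned on the YFP controls. Over all genes the calls as lower also rose without YFP control 1 and fell without YFP control 2. Without YFP control 1, 5 cytosolic and 5 mitochondrial genes were lower, and without YFP control 2 the cytosolic count was 0. Without naive control 2 the lower counts were 0 in both compartments. Cytosolic genes higher numbered 1 or 2 without any one of the LMP1, naive control or CD40-activated arrays. With array 1 or 2 of YFP control left out the cytosolic median was -0.23 or 0.16, so its sign turned. Markers of other cells moved here as well. All 8 T cell genes fell (median -2.5), from a mean of 8.49 to 8.71 in naive control to 5.7 to 6.18 in YFP control. Of 8 NK cell genes 7 fell (median -2.21) and of 6 erythroid and platelet genes 4 fell (median -1.99), while 4 of 7 plasma cell genes rose (median 0.92). Of 7 dendritic cell genes 4 fell, of 10 monocyte and macrophage genes 2 rose and 1 fell, and of 9 neutrophil genes 1 fell. The part of these markers in the synthetase differences was not tested.

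CD40-activated cells were also set against YFP control, the other cultured control, although strain, sex, recombinase and sort differ and the YFP control arrays also serve the LMP1 comparison. Of cytosolic genes 10 were higher and 0 lower (0 also at an unadjusted p under 0.05), with a median of 0.72. That unadjusted p in limma was reached as lower by 2985 of all 21515 genes. Of mitochondrial genes Lars2 was higher and Pars2 lower, with a median of 0.25. Over all genes 7.75% were higher and 6.06% lower, or 6.27% and 8.6% with quantile normalization within each pair of groups, where the mitochondrial median was -0.02. Of the markers 2 of 7 B cell and 2 of 10 monocyte and macrophage genes were lower in CD40-activated cells. Of 7 plasma cell genes 1 was higher and 3 lower, and of 7 dendritic cell genes 1 was higher. In the other marker lists 0 passed, and the part of these markers was not tested.

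Tars had the largest change here, 1.8 ± 0.19 (adjusted p = 0.000434), from 7.67 and 7.38 in YFP control to 9.37 and 9.27. Hars, Gars, Nars, Iars, Eprs and Kars followed with changes from 1.26 to 1.44. Qars, Rars, Farsa and Farsb, by contrast, differed by 0 ± 0.18, 0.03 ± 0.22, 0.07 ± 0.22 and 0.16 ± 0.17 and did not pass. Of the cytosolic calls 5 (Eprs, Gars, Iars, Kars and Tars) held in all 15 alternatives. The cytosolic count was 5 without either CD40-activated array, and the mitochondrial count of higher genes was 7 without YFP control 1 and 0 without either CD40-activated array. A cytosolic gene, 1 in number, passed as lower without YFP control 2, and the single lower mitochondrial gene was lost without YFP control 2, either LMP1 array or either CD40-activated array.

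LMP1 cells were compared directly with CD40-activated cells, where again strain, sex, recombinase, sort and agent cannot be told apart, and where the arrays are those of the comparisons above. Of cytosolic genes 10 were higher in LMP1 cells and 0 lower, with a median of 0.86. Of mitochondrial genes Yars2 was higher and 0 were lower, with a median of 0.43, and at an unadjusted p under 0.05 Fars2 was lower. Over all genes 9.66% were higher and 5.17% lower. At an unadjusted p under 0.05 in limma, 2180 of the 21515 genes were lower. Of the markers 4 of 7 B cell and 2 of 8 T cell genes were lower in LMP1 cells. Of 7 dendritic cell genes 3 were higher and 1 lower, and of 7 plasma cell genes 1 was higher and 2 lower. In the other marker lists 0 passed, and the part of these markers was not tested.

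Wars (1.52 ± 0.28), Yars (1.48 ± 0.19), Farsa (1.25 ± 0.22) and Farsb (1.03 ± 0.17) led, followed by Cars, Lars, Rars, Mars1, Qars and Kars. Tars, at 9.15 and 9.15 in LMP1 against 9.37 and 9.27 in CD40-activated cells, differed by -0.17 ± 0.19. Gars, Eprs, Iars and Hars, leading genes of the other comparisons, differed by 0.36 to 0.52 and did not pass. Farsa, Farsb and Yars passed in all 15 alternatives. The cytosolic count was 3 or 4 without any one LMP1 or CD40-activated array and 15 at most with another array left out. The calls over all genes moved with the array left out as well, and the YFP control arrays enter here only through the shared estimate of the spread. The mitochondrial median was 0.43 without either YFP control array, 0.42 without LMP1 1 and 0.33 without CD40-activated 1.

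**Figure D4:**
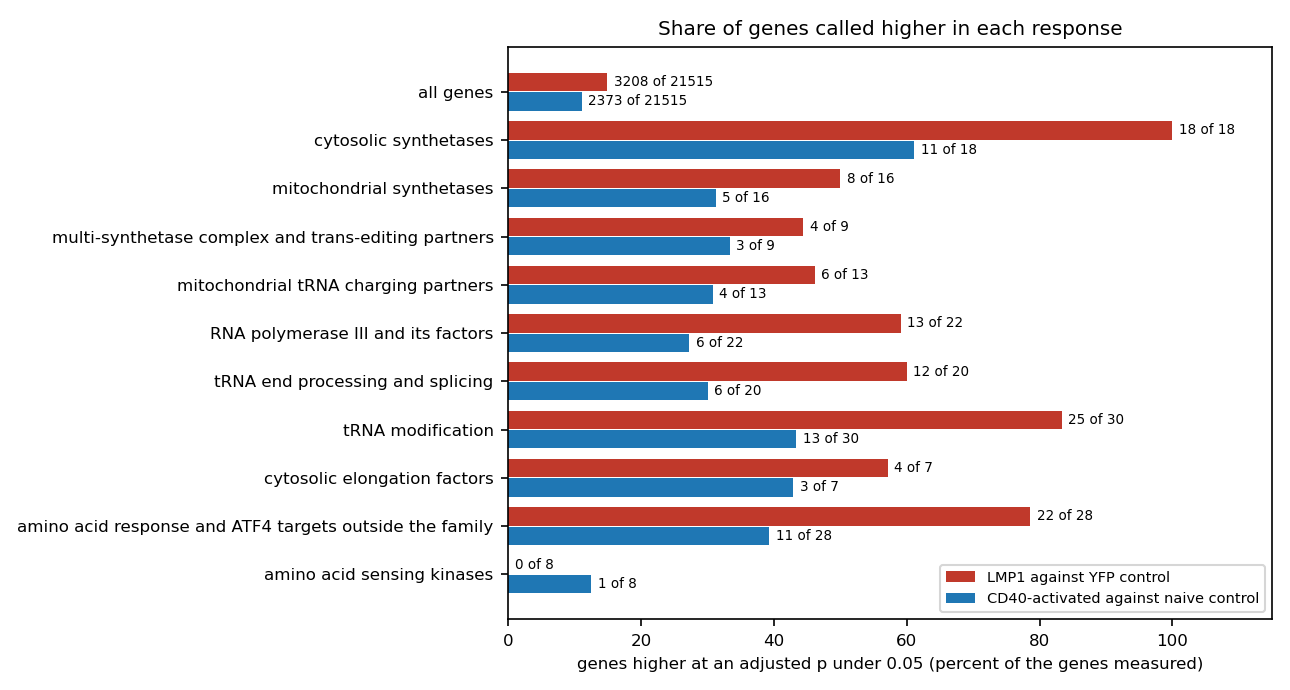
Percent of measured genes that passed as higher in LMP1 against YFP control (red) and CD40-activated against naive control (blue), for all genes, both synthetase groups and 8 lists of genes that work with tRNA or amino acids, with the counts beside the bars. Cytosolic synthetases show the highest share in both responses, 18 of 18 and 11 of 18. The list labelled amino acid sensing kinases holds the Eif2ak kinases and their regulators. The list labelled cytosolic elongation factors also holds Eef1akmt1 and Eef2k, which encode enzymes that modify such factors.

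Genes that make, modify and use tRNA were read next to the synthetases, from 8 lists with the counts in the bar plot of shares. The proteins that help cytosolic charging moved in part: 4 of 9 genes of the complex scaffold, editing and tRNA export list were higher in LMP1 cells and 3 of 9 in CD40-activated cells. Xpot, the tRNA export receptor, rose by 1.24 ± 0.16 in LMP1 and 1.06 ± 0.16 in CD40-activated cells. The scaffold proteins Eef1e1 (1.13 ± 0.23 and 1.07 ± 0.23) and Aimp1 (0.99 ± 0.17 and 0.72 ± 0.17) rose in both. Dtd1, which removes D-amino acids from tRNA, had the smallest LMP1 difference (0.22 ± 0.25) and Prorsd1 the smallest CD40 difference (0.07 ± 0.17). Without YFP control 1 or 2 the LMP1 count was 3 or 4. The CD40 count was 1 without naive control 1.

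Enzymes that modify tRNA had the highest share among the lists in LMP1 cells, 25 of 30, with a median change of 1.13. The pseudouridine synthase Pus7 rose by 2.17 ± 0.16, Mettl1, which adds a methyl group to guanosine, by 1.96 ± 0.3, and the methyltransferase Trmt1 by 1.6 ± 0.31, while Trdmt1 differed by 0.08 ± 0.24. In CD40-activated cells 13 of 30 were higher (median 0.56), with Trmt5 at 1.64 ± 0.19, Elp5 at 1.35 ± 0.19 and Nsun2 at 1.23 ± 0.17, and Pus3 had the smallest difference (-0.02 ± 0.17). The LMP1 count was 27 without YFP control 1 and 21 without YFP control 2. The difference of responses passed at Pus1 (1.25 ± 0.31) and Pus7 (1.02 ± 0.22).

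RNA polymerase III, which transcribes the tRNA genes, and its factors were higher at 13 of 22 genes in LMP1 cells and 6 of 22 in CD40-activated cells. Polr3d rose by 1.78 ± 0.24, Polr1c, a subunit shared with polymerase I, by 1.59 ± 0.25 and Polr3e by 1.49 ± 0.19 in LMP1 cells, and Bdp1 differed by 0.08 ± 0.16. In the difference of responses Polr3d (1.81 ± 0.34), Polr3gl (1.26 ± 0.29) and Polr3e (1.13 ± 0.27) passed. Polr3gl, the subunit form that resting cells favour over Polr3g, fell by 1.84 log2 in CD40-activated cells, the single lower gene of the list. Polr1d (1.21 ± 0.21) and Gtf3c5 (1.03 ± 0.16) rose there, and Polr3d differed by -0.03 ± 0.24. The LMP1 count was 15 without YFP control 1 and 10 without YFP control 2. The CD40 count was 3 without either naive control array and 2 with quantile normalization within each pair of groups.

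Genes that trim and splice tRNA were higher at 12 of 20 in LMP1 cells and 6 of 20 in CD40-activated cells. Pop1 (2.05 ± 0.19) and Rpp40 (2.04 ± 0.16), subunits of the enzyme that cuts the leading end, and Tsen54 (1.85 ± 0.39), a subunit of the splicing endonuclease, led in LMP1 cells, and Clp1 differed by 0.12 ± 0.16. For Tsen54 the YFP controls read 7.21 and 5.65. Elac1 was the 1 lower gene, at -0.7 ± 0.18. In CD40-activated cells Pop1 (1.8 ± 0.19), Rpp30 (1.4 ± 0.23) and Pop4 (1.26 ± 0.2) led, and Pop5 differed by 0.15 ± 0.33. Rpp40 passed in the difference of responses (0.95 ± 0.22). The LMP1 count was 12 without YFP control 1 and 11 without YFP control 2. Quantile normalization within each pair of groups gave 7 of 20 in LMP1 cells, and the CD40 count was 11 without either YFP control array, which enter through the shared estimate of the spread.

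Partners of mitochondrial charging and elongation were higher at 6 of 13 genes in LMP1 cells and 4 of 13 in CD40-activated cells. The mitochondrial elongation factors Tsfm (1.97 ± 0.38), Gfm1 (1.76 ± 0.26) and Tufm (1.75 ± 0.17) led in LMP1 cells, and Mtif2 differed by 0.01 ± 0.19. For Tsfm the YFP controls read 6.7 and 5.18, and the LMP1 count was 9 without YFP control 1 and 5 without YFP control 2. Tufm (1.11 ± 0.17) and Gatc (1.02 ± 0.28), part of the complex that amidates misacylated tRNA, led in CD40-activated cells, then Gfm1 (0.91 ± 0.26), and Trmu differed by -0.01 ± 0.18. Mto1, a tRNA modifying enzyme, passed in the difference of responses (1.2 ± 0.3). For the CD40 comparison the count was 1 without either naive control array and with quantile normalization within each pair of groups, and 7 without either YFP control array. The list of cytosolic elongation factors has 7 measured genes, of which Eef1akmt1 and Eef2k encode enzymes that modify such factors. Of the 7 genes 4 were higher in LMP1 cells, with Eif5a at 1.64 ± 0.36, Eef1d at 1.57 ± 0.29 and Eef1a1 at 1.08 ± 0.19. Eef2k, the kinase that inhibits Eef2, differed by 0.21 ± 0.18. The YFP controls lay far apart at Eif5a (9.42 and 7.97) and Eef1d (8.31 and 7.25), and the count was 6 without YFP control 1 and 4 without YFP control 2. In CD40-activated cells 3 were higher, Eif5a (1.35 ± 0.36), Eef1b2 (0.8 ± 0.18) and Eef1akmt1 (0.8 ± 0.19), Eef2k was lower (-0.63 ± 0.18) and Eef1a1 differed by 0.13 ± 0.19. That CD40 count was 1 without either naive control array.

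The amino acid response list, targets of ATF4 outside the family, had the most genes that passed in the difference of responses. In LMP1 cells 22 of 28 genes were higher, with a median of 1.56, and in CD40-activated cells 11 were higher and 1, Cebpb, lower, with a median of 0.3. The difference of responses passed at 11 of 28, all with the larger change in LMP1 cells, and its median was 1.12. At an unadjusted p under 0.05 it stood at 19 higher and 2 lower. Over all 21515 genes it stood at 2539 higher and 2264 lower.

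Asns, which makes asparagine, the amino acid Nars uses, gave the widest difference. It read 6.4 and 6.32 in YFP control, 9.73 and 9.74 in LMP1, 6.17 and 6.32 in naive control and 6.46 and 5.93 in CD40-activated cells. The LMP1 arrays stood alone, and the other 3 groups overlapped. Asns rose by 3.38 ± 0.2 in LMP1 cells and differed by -0.05 ± 0.2 in CD40-activated cells, a difference of 3.43 ± 0.28 (adjusted p = 0.000143).

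Shmt2 (3.07 ± 0.36), of serine and folate metabolism, and Sesn2 (2.88 ± 0.18), a leucine sensor, followed in LMP1 cells, and Slc38a2 differed by 0.07 ± 0.15. The LMP1 count was 22 without YFP control 1 and 20 without YFP control 2. Psat1, of serine synthesis, led in CD40-activated cells with 2.51 ± 0.18, then Mthfd2 with 1.71 ± 0.31 and Shmt2 with 1.66 ± 0.36. Chac1, which degrades glutathione, and Ddit4, an inhibitor of mTORC1, passed in the difference of responses with 2.29 ± 0.29 and 2.08 ± 0.53. The list's count in that difference was 17 without YFP control 1, 7 without YFP control 2 and 4 without naive control 1, and its CD40 count was 7 without naive control 2.

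Atf4 itself was looked at after its values were seen. It was at 7.86 and 7.2 in YFP control and 8.8 and 8.78 in LMP1 cells (1.26 ± 0.22, adjusted p = 0.00208), but naive control (8.8 and 8.66) and CD40-activated cells (8.62 and 8.59) were near the LMP1 level. The YFP control arrays were the low ones. Of the 8 measured genes of the Eif2ak kinases and their regulators 0 passed in LMP1 cells. At an unadjusted p under 0.05 in limma there were 3 higher and 1 lower, and some genes passed as higher without YFP control 1. The unadjusted counts over all 21515 genes were 4152 higher and 3150 lower. Eif2ak4, the kinase Gcn2, which responds to uncharged tRNA, differed by -0.03 ± 0.16. In CD40-activated cells Ppp1r15a, which reverses that kinase's signal, fell by 2.59 log2 and Impact, an inhibitor of the same kinase, rose by 1.04 ± 0.17, while Eif2ak1 differed by 0.01 ± 0.2. Both Ppp1r15a (3.3 ± 0.36) and Impact (-1.22 ± 0.25) passed in the difference of responses.

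The motif found at the start of Gars, Iars, Tars and Yars was read against the changes once more. Those 4 genes had a median change of 1.86 in LMP1 cells, from 1.63 to 2.18, the 7 cytosolic genes whose window held no match had 1.32, from 0.78 to 1.94, and the 7 without a window had 1.53. In CD40-activated cells the medians were 1.06, 0.84 and 0.44, and for the difference of responses 0.7, 0.41 and 1.14. The ranges of genes with and without a match overlapped in each comparison. Mars1 and Kars, among the leading genes, held no match in their windows, and Nars, Hars and Cars had none to search.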

How the data were processed

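RNA of 8 samples (4 groups of 2) was hybridised to Affymetrix whole-transcript arrays after TRIzol extraction, per the labels' protocols. The authors deposited log2 values per probe set, normalized by RMA with oligo (per the submitters' processing notes); its version and genome build are not given in the sources used here. Raw intensities were not used, so depth does not apply and the number of arrays limits precision. Probe sets with a single symbol in the platform annotation (22225 of 25349; 616 name several genes and 2508 none) were reduced to the one with the highest mean per gene, 21515 genes in all.

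A model of 4 group means was fitted to all genes with limma 3.58.1 in R 4.3.3, two-sided, with Benjamini-Hochberg adjustment over all genes and a threshold of 0.05. The script was tested on simulated data. Per-array values are printed for members that passed in the difference of responses and for the 5 highest and 5 lowest changes in LMP1 against YFP control and in CD40-activated against naive control; for LMP1 against YFP control and CD40-activated against naive control each pathway list names up to 3 largest changes that passed and the smallest, and for the difference of responses up to 3 that passed. Other genes were named because a result turned on them. The members and lists were chosen with earlier results of these data known. Alternatives changed the model, filter, scaling, probe set rule, replicate block and each array in turn. Promoter windows came from RefSeq, GRCm38.p6.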

Additional observations from a re-analysis of the deposited data

Results flagged for a closer look

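Members were picked out here where the LMP1 response (LMP1 minus YFP control) and the CD40 response (CD40-activated minus naive control) differed in limma's test of the difference itself. Each difference also depends on the references. YFP control minus naive control was 1.56 for Pars2, 0.19 for Yars, -0.14 for Cars, -0.47 for Aars2, -0.58 for Nars and -1.14 for Lars2. LMP1 minus CD40-activated passed for Yars (1.48) and Cars (1). It did not pass for Nars (0.82), Aars2 (0.54), Pars2 (0.45) and Lars2 (0.27). The part of the references was not tested. Yars had the larger LMP1 response by 1.29 ± 0.27 log2, and over the alternatives run the difference was 1.05 to 1.53 with adjusted p from 0.00289 to 0.0924. Nars had it by 1.4 ± 0.35 (0.98 to 1.83, adjusted p from 0.00144 to 0.15) and Cars by 1.14 ± 0.26 (0.95 to 1.32, adjusted p from 0.0146 to 0.127). Among mitochondrial enzymes Lars2 had it by 1.41 ± 0.32 (1.07 to 1.74, adjusted p from 0.00261 to 0.116) and Aars2 by 1.02 ± 0.27 (0.79 to 1.26, adjusted p from 0.00537 to 0.193). Pars2 had the larger CD40 response, at -1.11 ± 0.25 (-1.4 to -0.94, adjusted p from 0.00995 to 0.117). The sign held for all 6 genes in each alternative run, and each of the 6 lost its call in 1 or more of them.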

How the results depend on the processing

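No call among the synthetases turned its sign in the alternatives run. With only the groups of a comparison in the model, LMP1 against YFP control gave 5 mitochondrial genes higher and 0 lower. Of the cytosolic genes Vars and Wars no longer passed there (2466 higher and 1198 lower of all genes, against 3208 and 1787). YFP control against naive control gave 1 cytosolic gene higher, 0 cytosolic lower and 0 mitochondrial lower (990 higher and 547 lower of all genes, against 2352 and 1634). CD40-activated against YFP control gave 0 mitochondrial lower (981 and 686, against 1667 and 1303), and LMP1 against CD40-activated gave 17 cytosolic higher, 8 mitochondrial higher and 1 lower (3830 and 2530, against 2078 and 1113). Quantile normalization within each set gave 3 mitochondrial genes higher for CD40-activated against naive control, 2 cytosolic lower for YFP control against naive control, 1 cytosolic lower for CD40-activated against YFP control, and 8 cytosolic higher in the difference of responses. With dim genes left out, 2 mitochondrial genes were higher in LMP1 against CD40-activated and 5 cytosolic genes in the difference of responses. Trend and robust fitting, and array medians subtracted, each gave 1 mitochondrial gene higher in that difference, and array medians subtracted gave 0 mitochondrial lower in CD40-activated against YFP control. The cause was not tested.

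Leaving out each array in turn gave these ranges, and the calls over all genes moved with the array left out as well. LMP1 against YFP control had 13 to 18 cytosolic and 3 to 11 mitochondrial genes higher and 0 to 1 mitochondrial lower. CD40-activated against naive control had 5 to 13 and 2 to 6 higher. YFP control against naive control had 1 to 3 cytosolic higher, 0 to 5 lower, 2 to 3 mitochondrial higher and 0 to 5 lower. CD40-activated against YFP control had 5 to 12 cytosolic higher, 0 to 1 lower, 0 to 7 mitochondrial higher and 0 to 1 lower. LMP1 against CD40-activated had 3 to 15 cytosolic higher, 0 to 7 mitochondrial higher and 0 to 1 lower. The difference of responses had 0 to 11 cytosolic higher, 0 to 6 mitochondrial higher and 0 to 2 lower.

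With the replicate number as a block, LMP1 against YFP control had 18 cytosolic and 8 mitochondrial genes higher, and CD40-activated against naive control 11 and 5. LMP1 against CD40-activated had 9 cytosolic genes higher with the block, CD40-activated against YFP control 0 mitochondrial lower, and the difference of responses 1 mitochondrial higher. The numbers gave no pairing, since deviations of same-numbered arrays correlated from -0.1 to 0.07. A block with the CD40-activated numbers crossed, added after seeing the data, gave 10 cytosolic and 1 mitochondrial gene higher in LMP1 against CD40-activated.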
